A study of Mus musculus with 8 samples.

Results

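The receptors of the NOTCH pathway (*Notch1*, *Notch2*, *Notch3* and *Notch4*), the Fringe enzymes that modify them (*Lfng*, *Mfng* and *Rfng*) and 3 parts of the nuclear complex through which they act (*Rbpj*, *Maml1* and *Maml2*) were followed in RNA-seq of mouse outflow tract (OFT), the vessel-forming end of the embryonic heart. These 10 genes were chosen by name, and all 10 were among the 14608 genes of the deposited table. The tissue was taken at embryonic day 11.5 from 2 groups of 4 libraries. One group is labelled control in the genotype field and WT in the library titles, with no further genotype or strain in the labels. The other is labelled Mib1V943F/+ Gata6STOP/+, that is, heterozygous for a missense allele of *Mib1*, the ubiquitin ligase of NOTCH ligands, and for a null allele of *Gata6*, a transcription factor of the developing heart. No tissue-specific driver is named for either allele. The design text gives 3 individuals per pooled library, while the methods of the study describe the pooling differently.

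NOTCH receptors are single-pass proteins of the cell surface. A ligand on a neighbouring cell, pulled by MIB1-dependent endocytosis, exposes the receptor to cleavage, and the released intracellular domain enters the nucleus. There it binds RBPJ, which sits on DNA and otherwise represses the same genes, and recruits Mastermind coactivators (MAML). Fringe enzymes add a sugar to fucose on the receptor and so alter which ligands it answers to. In the developing heart, NOTCH1 acts in the endocardium during formation of the valve cushions, and NOTCH3 is a receptor of mural and smooth muscle cells.

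Reads on listed genes ran from 10669420 in control replicate 2 to 30469165 in mutant replicate 3, so the former had the largest counting error. The level of *Gata6* RNA did not separate the groups (236 to 279 CPM in control libraries and 213 to 284 CPM in mutant libraries). Here CPM are read counts scaled by library totals that TMM normalization had adjusted. The level of *Mib1* RNA did not separate the groups either (107 to 138 against 123 to 137 CPM). Neither comparison checks the genotypes, since the *Mib1* allele is a missense change and reads of *Gata6* were not split by allele. The groups are called control-labelled and mutant-labelled after their labels, on which every direction rests. The libraries differed in how levels followed the GC content of transcripts. A rise of 10 percentage points in GC went with 0.21 on the log2 scale in control-labelled replicate 2, 0.10 in control-labelled replicate 3 and -0.18 in mutant-labelled replicate 2, and with between -0.052 and 0.023 in the other libraries. Markers of cardiomyocytes (12 of 12 listed), endocardium and endothelium (15 of 15), smooth muscle and mural cells (10 of 10) and cushion mesenchyme (12 of 12) were all in the table, while 6 of 8 markers of pharyngeal epithelium were not listed.

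The question was whether RNA of the receptors, their modifying enzymes or the nuclear complex differed between the mutant-labelled and control-labelled OFT. None of the 10 genes passed an adjusted p-value of 0.05 in limma with Benjamini-Hochberg adjustment over all genes, where 0% of the 14608 genes passed. The same held for the edgeR quasi-likelihood test (0% of genes past an adjusted p-value of 0.05), the edgeR likelihood ratio test (0.732%) and DESeq2 (1.54%) on reads recovered from the table. At an unadjusted p-value under 0.05, 1 member was higher in the mutant-labelled libraries, *Rbpj*, and 0 were lower, beside 5.45% and 6.62% of all genes (12.1% in either direction). Each count model also had 1 member at that level, beside 11.7% of genes in the quasi-likelihood test, 11.4% in the likelihood ratio test and 12% in DESeq2. *Rbpj* was also the single member whose groups did not overlap, a pattern that 3.2% of all genes showed in that direction, 3.9% in the other and 7.1% in either. The members' median log2 fold change was 0.0022, and that of all genes was 0.0011. Without its sign, the median was 0.051 for the members and 0.11 for all genes.

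The 95% confidence intervals of the 10 log2 fold changes lay within -0.33 and 0.44, that is, between 0.796-fold and 1.35-fold. Every interval except that of *Rbpj* held 0.

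**Figure D1:**
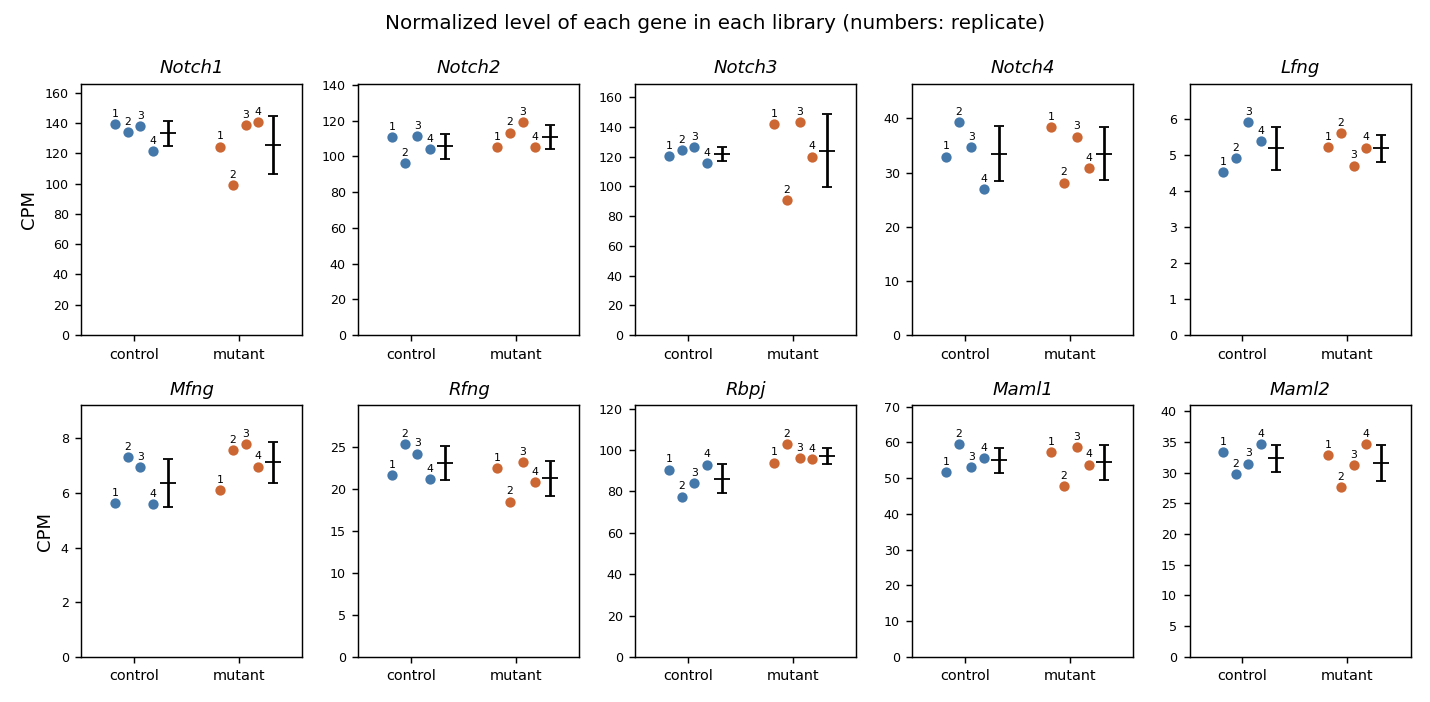
Level of each of the 10 genes in CPM (vertical axis, from 0) in the 4 control-labelled and 4 mutant-labelled libraries. Points are libraries with their replicate number, and bars are the mean with SD. In *Rbpj* all mutant-labelled points lie above the control-labelled ones, while the groups overlap in the other 9 genes and mutant replicate 2 is lowest in 5 of them.

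Among the receptors, *Notch1* (ENSMUSG00000026923, GRCm38 chromosome 2, 26457903 to 26516663, minus strand) measured 139, 134, 138 and 121 CPM across control-labelled replicates 1 to 4 and 124, 99.1, 139 and 141 CPM across mutant-labelled replicates 1 to 4. Mutant-labelled replicate 2 was the lowest of all libraries, and the other mutant-labelled libraries fell within or just above the control-labelled range. The means were 133 ± 8.25 and 126 ± 19.1 CPM (SD, n = 4 each). On the log2 scale the difference was -0.09 (95% confidence interval -0.32 to 0.13, standard error, SE, 0.10, limma adjusted p = 0.721, exact permutation p = 0.686, two-sided). It turned to 0.015 without mutant-labelled replicate 2, with *Notch1* still far from the threshold. Between 1413 and 4265 reads stood behind each of these values, and counting error was at most 2.66% of the level.

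*Notch3* (ENSMUSG00000038146, chromosome 17, 32120820 to 32166852, minus strand) had the widest spread of the receptors within a group. It measured 121, 125, 126 and 116 CPM across control-labelled and 142, 90.7, 143 and 120.1 CPM across mutant-labelled replicates 1 to 4, again with mutant-labelled replicate 2 lowest. Replicates 1 and 3 of the mutant-labelled group stood above every control-labelled library, and replicate 2 stood below every one. The SD was 4.72 CPM around 122 in the control-labelled and 24.6 CPM around 124 in the mutant-labelled group. Its log2 fold change was 0.0037 (95% confidence interval -0.26 to 0.27, SE 0.12, limma adjusted p = 0.993, exact permutation p = 0.971). With mutant-labelled replicate 2 left out, the value was 0.15.

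*Notch2* (ENSMUSG00000027878, chromosome 3, 98013527 to 98150361, plus strand), the receptor with the smallest spread over all 8 libraries (6.42% of its mean), measured 111, 96.3, 111 and 104 CPM across control-labelled and 105, 113, 119 and 105 CPM across mutant-labelled replicates 1 to 4. Its groups overlapped, and control-labelled replicate 2 was the lowest library. The log2 fold change was 0.07 (95% confidence interval -0.09 to 0.22, limma adjusted p = 0.702, exact permutation p = 0.314).

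*Notch4* (ENSMUSG00000015468, chromosome 17, 34564268 to 34588503, plus strand), a receptor known mainly from endothelial cells, measured 33.0, 39.4, 34.7 and 27.0 CPM across control-labelled and 38.5, 28.1, 36.7 and 30.8 CPM across mutant-labelled replicates 1 to 4. The groups covered nearly the same range, with means of 33.5 ± 5.10 and 33.5 ± 4.86 CPM (SD, n = 4 each). The log2 fold change was 0.0012 (95% confidence interval -0.27 to 0.27, limma adjusted p = 0.999). Of the 4 receptors it had the widest spread over all libraries, 13.8% of its mean.

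The makeup of the receptor RNA was compared as the share of each receptor in the sum of the 4 levels per kilobase of exon. *Notch3* took 38.2% to 39.9% in the control-labelled and 34.9% to 43.0% in the mutant-labelled libraries. The share of *Notch2* ran from 23.1% to 27.0% in the former and from 23.9% to 32.7% in the latter, where the highest value belonged to mutant-labelled replicate 2. *Notch1* held 23.8% to 25.1% against 21.4% to 25.8%, and *Notch4* 9.36% to 12.6% against 9.97% to 11.7%. All 4 shares overlapped between the groups. Their size depended on the length used. Per kilobase of the longest annotated transcript, *Notch1* took 31.0% to 32.4% against 28.1% to 33.3%, and *Notch2* 20.5% to 24.1% against 21.5% to 29.3%.

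The genes whose profile over the 8 libraries was nearest to that of each receptor were taken after scaling every gene to unit SD, by the root mean square difference. For *Notch1* they were *Git2* (0.208 SD) and *Ints7* (0.209 SD), for *Notch2* they were *Irf1* (0.260 SD) and *Zfp532* (0.344 SD), for *Notch3* they were *Clk2* (0.174 SD) and *E2f3* (0.235 SD), and for *Notch4* they were *Cmtm8* (0.227 SD) and *Aldh18a1* (0.298 SD). The median over all genes lay between 1.32 and 1.34 SD for the 4 receptors. The named genes were picked as the nearest of the whole table on 8 values, so their distances are small by choice. They describe these 8 libraries only.

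The Fringe enzymes were the least abundant members by CPM. *Rfng* (ENSMUSG00000025158, chromosome 11, 120780746 to 120784207, minus strand) measured 21.7, 25.4, 24.2 and 21.2 CPM across control-labelled and 22.5, 18.5, 23.2 and 20.9 CPM across mutant-labelled replicates 1 to 4. The ranges overlapped, with the lowest value in mutant-labelled replicate 2 and the highest in control-labelled replicate 2, the libraries with the steepest GC trends. Its log2 fold change was -0.12 (95% confidence interval -0.33 to 0.09, SE 0.10, limma adjusted p = 0.615, exact permutation p = 0.257). Once the GC and length trend of each library was removed, the value was -0.0085 (95% confidence interval -0.15 to 0.13).

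*Mfng* (ENSMUSG00000018169, chromosome 15, 78755882 to 78773475, minus strand) measured 5.62, 7.30, 6.94 and 5.59 CPM across control-labelled and 6.12, 7.58, 7.80 and 6.97 CPM across mutant-labelled replicates 1 to 4. The highest values were mutant-labelled replicates 2 and 3, and the groups overlapped. Its log2 fold change, 0.15 (95% confidence interval -0.13 to 0.44, SE 0.13, limma adjusted p = 0.628, exact permutation p = 0.200), was the second highest of the members after that of *Rbpj*. After removal of the GC and length trend it was 0.26 (95% confidence interval 0.0012 to 0.51, unadjusted p = 0.0491 and limma adjusted p = 0.426), where 5.13% of all genes were higher at an unadjusted p-value under 0.05. *Mfng* rested on 77 to 240 reads per library.

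*Lfng* (ENSMUSG00000029570, chromosome 5, 140607320 to 140615545, plus strand), which in the embryo is also known from the segmentation clock, was the lowest member. It measured 4.54, 4.93, 5.93 and 5.4 CPM across control-labelled and 5.23, 5.63, 4.71 and 5.22 CPM across mutant-labelled replicates 1 to 4. The mutant-labelled values lay wholly within the control-labelled range. The means were 5.20 ± 0.600 and 5.20 ± 0.375 CPM (SD, n = 4 each), and the log2 fold change was 0.0031 (95% confidence interval -0.27 to 0.28, limma adjusted p = 0.995). Control-labelled replicate 2 held 52 reads of *Lfng*, a counting error of 13.9% in that library, and the spread over the 8 libraries was 8.91%.

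Within the Fringe family, per kilobase of exon, *Rfng* took 66.9% to 69.7% in the control-labelled and 60.2% to 68.1% in the mutant-labelled libraries. *Mfng* held 15.6% to 17.4% against 16.2% to 21.6%, and *Lfng* 13.3% to 17.1% against 13.5% to 18.2%. Each pair of ranges overlapped. Per kilobase of the longest annotated transcript, the share of *Mfng* was larger, 21.5% to 23.9% against 22.3% to 29.0%. Mutant-labelled replicate 2 had the lowest share of *Rfng* and the highest shares of *Mfng* and *Lfng* of its group.

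In the nuclear complex, *Rbpj* (ENSMUSG00000039191, chromosome 5, 53466152 to 53657362, plus strand), the DNA-binding protein, measured 90.5, 77.5, 84.1 and 93.0 CPM across control-labelled and 94.0, 103, 96.1 and 95.6 CPM across mutant-labelled replicates 1 to 4. Every mutant-labelled library was above every control-labelled one, by about 1 CPM between control-labelled replicate 4 and mutant-labelled replicate 1. The means were 86.3 ± 6.95 and 97.2 ± 4.04 CPM (SD, n = 4 each), or 1.13-fold. The log2 fold change was 0.17 (95% confidence interval 0.018 to 0.33, SE 0.07, unadjusted p = 0.0321 and limma adjusted p = 0.389). The exact permutation p was 0.0286, the smallest that 4 libraries against 4 can give. *Rbpj* failed the correction over all genes, and over the alternatives its adjusted p-value ran from 0.272 to 0.747.

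The transcript of *Rbpj* is poor in GC (43.7%), and the lowest and the highest *Rbpj* libraries, control-labelled replicate 2 and mutant-labelled replicate 2, were those with the steepest GC trends in opposite directions. After removal of the trend, *Rbpj* deviated from its own mean by -0.098 to -0.0049 in the control-labelled and by 0.025 to 0.071 in the mutant-labelled libraries (log2). The groups still did not overlap, and the fold change was smaller, 0.10 (95% confidence interval 0.0040 to 0.20, unadjusted p = 0.0426 and limma adjusted p = 0.404). Without both of those libraries it was 0.09 (95% confidence interval -0.035 to 0.22, unadjusted p = 0.135 and limma adjusted p = 0.747). The annotation holds 2 processed pseudogenes of *Rbpj* (Rbpj-ps1 and Rbpj-ps3), neither of them listed in the table. Whether they share reads with the gene was not tested, and its level is uncertain to that extent.

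*Maml1* (ENSMUSG00000050567, chromosome 11, 50255634 to 50292311, minus strand) measured 51.7, 59.6, 53.1 and 55.7 CPM across control-labelled and 57.4, 47.8, 58.8 and 53.8 CPM across mutant-labelled replicates 1 to 4. The lowest value was again mutant-labelled replicate 2, and the others mixed. Its log2 fold change was -0.02 (95% confidence interval -0.19 to 0.16, limma adjusted p = 0.938).

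*Maml2* (ENSMUSG00000031925, chromosome 9, 13297957 to 13709388, plus strand) measured 33.4, 29.8, 31.5 and 34.7 CPM across control-labelled and 32.9, 27.7, 31.2 and 34.7 CPM across mutant-labelled replicates 1 to 4, with overlapping groups. Its log2 fold change was -0.03 (95% confidence interval -0.22 to 0.16, limma adjusted p = 0.888). Of the sum of *Maml1* and *Maml2* per kilobase of exon, *Maml1* took 64.9% to 70.5% in the control-labelled and 65.0% to 69.2% in the mutant-labelled libraries. The third Mastermind gene, *Maml3*, was in the table but not counted in that sum.

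**Figure D2:**
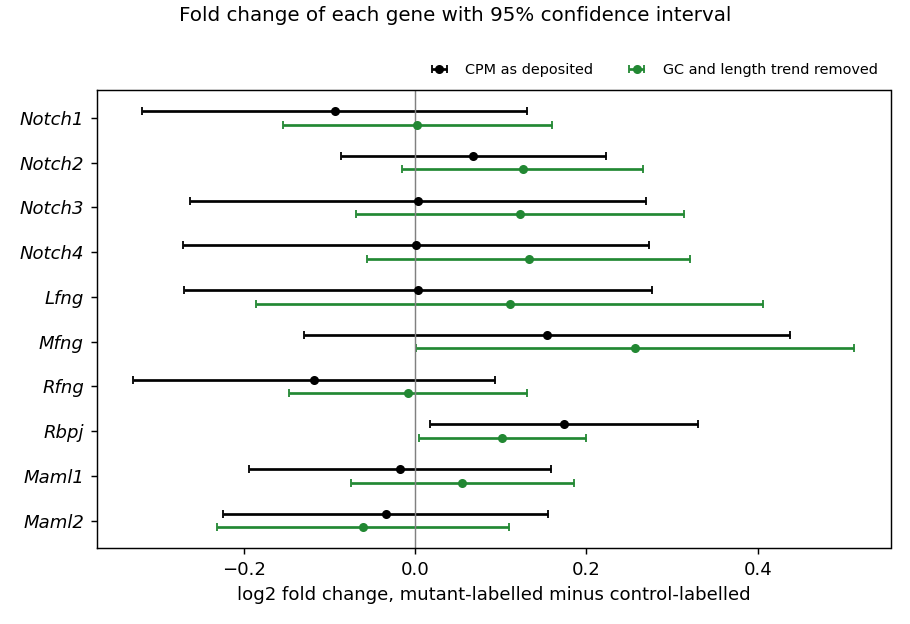
Log2 fold change of each gene (mutant-labelled minus control-labelled) with its 95% confidence interval, for the CPM as deposited (black) and after removal of each library's trend with GC content and length (green). Of the black intervals that of *Rbpj* alone excludes 0, and of the green ones those of *Rbpj* and *Mfng*.

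Since RBPJ binds DNA at the letters TGGGAA, the promoters of the members were read for them. RefSeq start sites on GRCm38.p6 gave windows of 300 bases, from 250 before to 50 after the start, for 9 of the 10 genes. The letters TGGGAA, on either strand, stood in the windows of 3 of these 9 genes (*Lfng*, *Rbpj* and *Maml2*), and in those of 28.3% of the 27025 genes with a window. The 6 genes without a match were *Notch1*, *Notch2*, *Notch3*, *Notch4*, *Rfng* and *Maml1*. A match is a description of letters and not a bound site. Of 4 windows with a match, 3 are shown, for the gene whose groups did not overlap and for the Fringe and MAML genes, 5′ to 3′ on the plus strand, with TGGGAA or its reverse complement TTCCCA in capitals. The first *Rbpj* window (chr5:53590096-53590395) holds a match in each direction, with first bases at -149 and -65 from the start. A second *Rbpj* start has a window that overlaps it and holds the latter match again, at -205 from that start. That of *Lfng* (chr5:140607091-140607390) also holds one in each direction, at -135 and -108. The latter reads GTGGGAA with its neighbour, letters that 7.25% of genes carried on either strand. The second *Maml2* start has 1 match in its window (chr9:13662210-13662509), at -145.
Rbpj: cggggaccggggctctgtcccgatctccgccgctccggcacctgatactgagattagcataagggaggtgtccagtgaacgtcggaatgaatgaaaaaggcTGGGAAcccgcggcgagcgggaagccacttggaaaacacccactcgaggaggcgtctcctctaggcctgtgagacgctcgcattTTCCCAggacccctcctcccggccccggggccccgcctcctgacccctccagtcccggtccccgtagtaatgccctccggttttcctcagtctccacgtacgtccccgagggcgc
Lfng: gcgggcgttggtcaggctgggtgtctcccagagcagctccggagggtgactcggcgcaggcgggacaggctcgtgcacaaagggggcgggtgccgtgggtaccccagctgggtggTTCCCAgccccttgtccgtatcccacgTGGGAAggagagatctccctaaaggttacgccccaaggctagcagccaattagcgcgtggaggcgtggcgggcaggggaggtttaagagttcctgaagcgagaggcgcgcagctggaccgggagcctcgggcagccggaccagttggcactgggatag
Maml2: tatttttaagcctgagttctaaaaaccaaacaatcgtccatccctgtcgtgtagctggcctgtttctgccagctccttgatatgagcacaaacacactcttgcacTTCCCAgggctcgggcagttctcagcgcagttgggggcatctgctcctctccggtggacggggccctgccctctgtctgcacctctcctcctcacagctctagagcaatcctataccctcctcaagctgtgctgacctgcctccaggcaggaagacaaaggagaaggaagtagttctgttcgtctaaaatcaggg

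Levels of different genes were compared per kilobase of the union of annotated exons, over all 8 libraries. The highest was *Notch3*, at 15.2 ± 2.03 CPM per kilobase (SD, n = 8), and its range stood clear of the next. *Notch2* (10.03 ± 0.644), *Maml1* (9.90 ± 0.714), *Notch1* (9.09 ± 0.999), *Rfng* (8.92 ± 0.865) and *Rbpj* (7.20 ± 0.616 CPM per kilobase) followed, each with a range that overlapped that of its neighbour. The order of neighbours is therefore not resolved. The ranges of *Notch2* (from 8.94) and *Maml1* (from 8.65) stood clear of that of *Rbpj* (up to 8.09 CPM per kilobase). *Maml2* (4.85 ± 0.368) and *Notch4* (4.16 ± 0.572) formed a lower pair with overlapping ranges, below *Rbpj*. The lowest were *Mfng* (2.37 ± 0.304) and *Lfng* (2.08 ± 0.185 CPM per kilobase), whose ranges also overlapped.

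This order depended on the length used for some genes. The union of exons is 14.2 kb for *Notch1* and 12.8 kb for *Rbpj*, while their longest annotated transcripts are 9.49 kb and 5.49 kb. Per kilobase of the longest transcript, *Rbpj* came first at 16.7, then *Notch3* at 15.3 and *Notch1* at 13.6 CPM per kilobase, all with overlapping ranges. *Notch2* stayed near 10.3 and *Lfng* remained last at 2.26 CPM per kilobase.

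**Figure D3:**
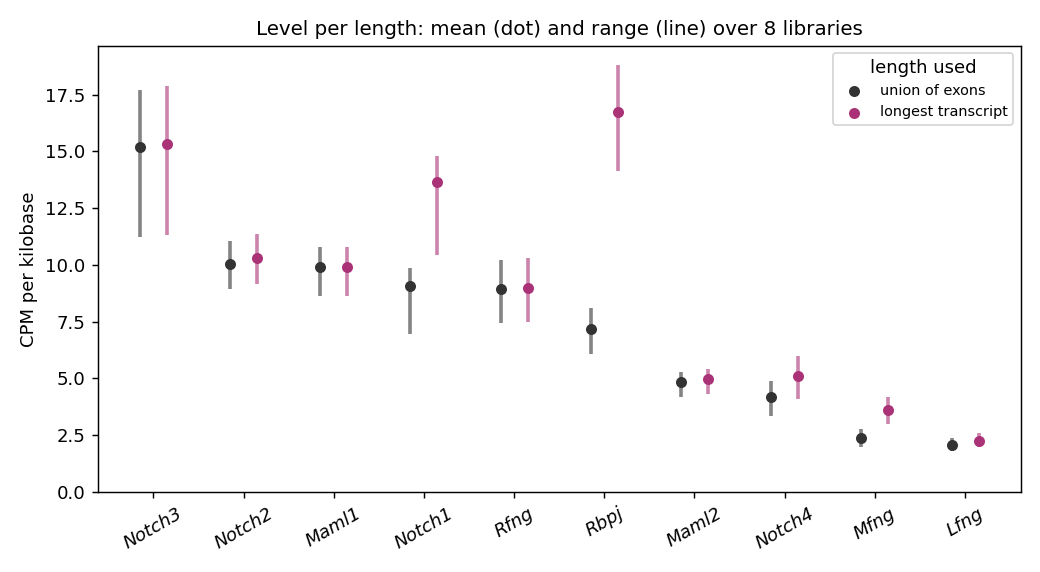
Level of each gene in CPM per kilobase (vertical axis, from 0), as the mean (dot) and the range (line) over all 8 libraries, for the union of exons (dark) and the longest transcript (purple). The choice of length moves *Rbpj* from 7.20 to 16.7 and *Notch1* from 9.09 to 13.6, while *Notch3* stays near 15 and *Lfng* stays lowest.

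Mutant-labelled replicate 2 was the lowest of the 8 libraries for 5 of the 10 members (*Notch1*, *Notch3*, *Rfng*, *Maml1* and *Maml2*) and the highest for 1 (*Rbpj*). In the whole table it was the lowest for 26.2% of genes and the highest for 27.35%. Of genes whose longest transcript had at least 55% GC, as in 7 of the 10 members, 48.8% were lowest there, and of genes with less than 45% GC, as in *Rbpj*, 49.9% were highest there. Removal of the GC and length trend brought *Notch3* in that library from -0.42 to -0.20 (log2 deviation from its own mean), *Notch1* from -0.37 to -0.20 and *Rfng* from -0.25 to -0.061. *Maml2*, with 47.0% GC, went from -0.20 to -0.24, and *Mfng* from 0.17 to 0.33. After this step the log2 fold changes of the receptors were 0.12 for *Notch3* (95% confidence interval -0.069 to 0.31), 0.13 for *Notch4* (-0.056 to 0.32), 0.13 for *Notch2* (-0.016 to 0.27) and 0.0024 for *Notch1* (-0.15 to 0.16), and none passed the threshold (adjusted p between 0.484 and 0.995 from limma).

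**Figure D4:**
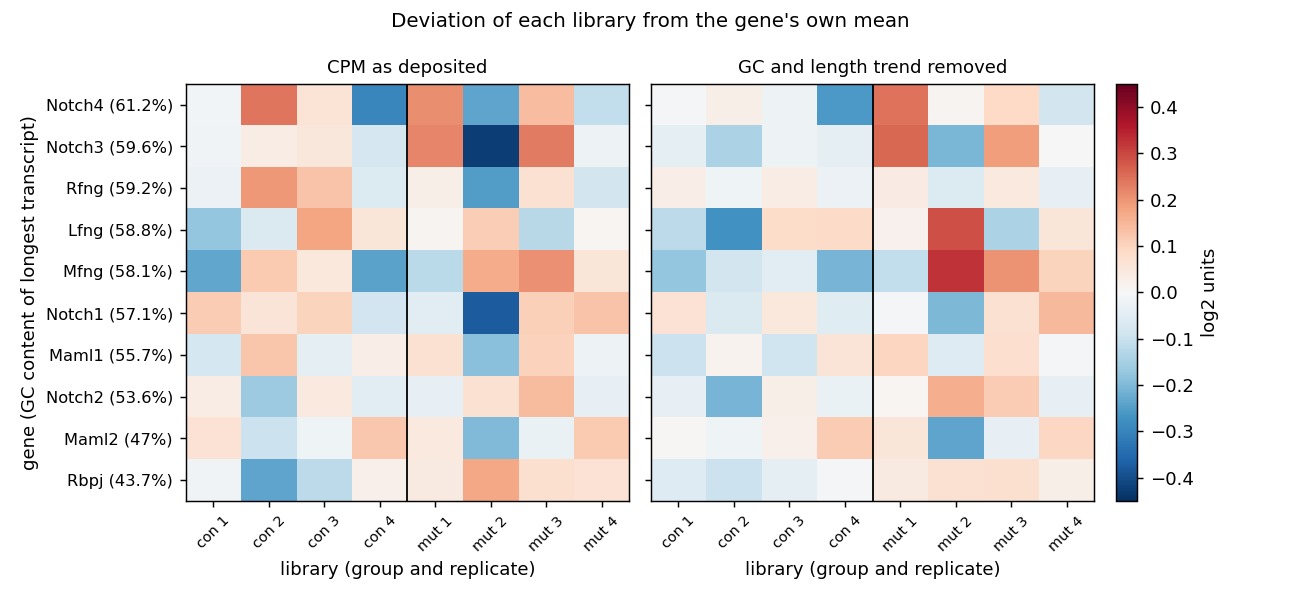
Deviation of each library (columns, control-labelled left of the line and mutant-labelled right of it) from the mean of each gene (rows, ordered by GC content), in log2 units, before (left) and after (right) removal of the GC and length trend. The dark blue cells of *Notch3* and *Notch1* in mutant replicate 2, at -0.42 and -0.37, are paler after the step, at -0.20 each.

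Markers of several cell types were set beside the members. In bulk tissue, fewer cells of a type and less RNA per cell cannot be told apart. Of the 15 endocardial and endothelial markers, 0 stood higher and 4 lower in mutant-labelled OFT at an unadjusted p-value under 0.05, and their summed level was 1306 to 1589 CPM in the control-labelled and 1299 to 1458 CPM in the mutant-labelled libraries. Of the 10 smooth muscle and mural markers, 3 were higher and 1 was lower (2948 to 3330 against 3051 to 3459 CPM). None of the 12 cushion mesenchyme markers passed an unadjusted p-value of 0.05 (5998 to 6451 against 5427 to 7429 CPM). Cardiomyocyte markers were lower for 11 of 12 genes, with sums of 26586 to 31055 CPM in the control-labelled and 21098 to 25001 CPM in the mutant-labelled libraries, which did not overlap. After adjustment over all genes, 0 markers of any list passed in limma, while 6 cardiomyocyte markers (*Tnnt2*, *Tnni1*, *Myh7*, *Myl4*, *Actn2* and *Tnnc1*, all lower), *Rgs5* of mural cells and *Stmn2* of neurons (both higher) passed in the edgeR likelihood ratio test. The sums of the other lists overlapped. Epicardium and mesothelium had 0 genes higher and 1 of 8 lower (373 to 491 against 357 to 613 CPM), and neural crest derivatives and neurons had 2 of 8 listed genes higher and 0 lower (129 to 157 against 113 to 168 CPM). There were 0 in either direction for the 2 listed markers of pharyngeal epithelium (69.1 to 89.0 against 75.2 to 85.0 CPM, with *Epcam* and *Cdh1* among those not in the table), the 9 of erythroid cells (1725 to 3528 against 1468 to 5325 CPM) and the 10 of macrophages (58.0 to 72.4 against 58.4 to 91.0 CPM). Of all libraries, mutant-labelled replicate 2 had the highest sums for cushion mesenchyme, epicardium and mesothelium, erythroid cells and macrophages. It also had the lowest sums for cardiomyocytes, endocardium and endothelium, and neural crest derivatives and neurons. It was at neither end for smooth muscle and mural cells or pharyngeal epithelium. The part of these cell types in the levels of the members was not tested.

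The rest of the pathway was followed with 7 lists that hold 107 genes, of which 101 were in the table. At an unadjusted p-value under 0.05, 8 (7.92%) stood higher and 5 (4.95%) stood lower in mutant-labelled OFT, beside 5.45% and 6.62% of all genes. After adjustment over all genes, 0 passed in limma or either edgeR test. Of the genes named below, *Jag1* and *Heyl* passed in DESeq2, where 1.54% of all genes it adjusted passed. A DESeq2 count over all 101 genes is not given here. The count of 13 at an unadjusted p-value under 0.05 ran from 7 to 15 with each library left out in turn. It was 8 without control-labelled replicate 1, 7 without control-labelled replicate 2 or 3, and 15 without control-labelled replicate 4. The median log2 fold change of the 101 genes was 0.018.

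Among ligands and their regulators, 2 of 13 listed genes were higher and 3 lower. *Jag1*, a NOTCH ligand of endocardium and smooth muscle, measured 102, 89.0, 93.9 and 92.7 CPM across control-labelled and 121, 118, 111 and 104 CPM across mutant-labelled replicates 1 to 4. Its groups did not overlap, and its log2 fold change was 0.27 (SE 0.07, limma adjusted p = 0.240 and 0.0420 from DESeq2, each adjusted over the genes it tested). *Mfap5*, a microfibril protein, differed by 0.47 (SE 0.17) with overlapping values of 3.319 to 7.28 CPM. *Neurl1b*, a ubiquitin ligase that like *Mib1* acts on ligands, was at 27.1 ± 3.19 and 22.9 ± 1.54 CPM (SD, n = 4 each), which is a log2 difference of -0.23 (SE 0.10).

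Of the 12 listed genes of receptor glycosylation and maturation, the step the Fringe enzymes belong to, 2 were higher and 0 lower. *Poglut1*, which adds glucose to the receptors, was at 51.4 ± 3.99 and 60.2 ± 8.12 CPM (SD, n = 4 each) with overlapping groups, a log2 fold change of 0.22 (limma adjusted p = 0.402) that was 0.13 without mutant-labelled replicate 2. *Gxylt2*, which adds xylose to that glucose, was at 7.52 ± 2.40 and 10.6 ± 1.43 CPM (SD, n = 4 each), also overlapping, and its log2 fold change of 0.50 was 0.32 without control-labelled replicate 2.

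Of the 14 genes of receptor cleavage 0 were higher and 1 was lower. *Ncstn*, a subunit of the gamma-secretase that frees the intracellular domain, measured 156, 154, 156 and 151 CPM across control-labelled and 131, 138, 148 and 141 CPM across mutant-labelled replicates 1 to 4. The groups did not overlap, and the log2 fold change was -0.15 (SE 0.06, limma adjusted p = 0.388). Among 16 genes of receptor trafficking and turnover, 2 were higher and 0 lower, *Lnx2* and *Itch*, both ubiquitin ligases. *Lnx2* was at 24.4 ± 0.945 against 28.5 ± 0.818 CPM (SD, n = 4 each), with no overlap. *Itch*, at 61.9 to 80.3 CPM in the control-labelled libraries, stood at 80.3, 81.7 and 81.8 CPM in mutant-labelled replicates 1, 3 and 4 and at 104.6 CPM in mutant-labelled replicate 2, so that its groups came close without overlap. The log2 fold change of 0.23 was 0.14 without mutant-labelled replicate 2 and 0.15 without control-labelled replicate 2.

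Among partners of RBPJ in the nucleus, 0 of 10 coactivator genes were higher and 1 was lower, *Kmt2d*, a histone methyltransferase, at 158 ± 15.02 and 137 ± 16.3 CPM (SD, n = 4 each). For *Kmt2d* the log2 fold change of -0.21 was -0.071 after removal of the GC and length trend and -0.12 without mutant-labelled replicate 2. Of 21 corepressor genes 0 passed in either direction. The most abundant of them were *Ctbp1*, at a log2 fold change of -0.08 (95% confidence interval -0.23 to 0.07), and *Ncor1*, with -0.0087 (-0.16 to 0.14). Of 16 listed target genes 2 were higher and 0 lower. *Heyl*, a repressor known as a direct target, measured 26.3, 31.2, 31.3 and 31.5 CPM across control-labelled and 34.5, 37.6, 41.3 and 39.3 CPM across mutant-labelled replicates 1 to 4, which did not overlap. Its log2 fold change was 0.34 (SE 0.09), with an adjusted p-value of 0.234 in limma, 0.0568 in the edgeR likelihood ratio test and 0.0331 in DESeq2. *Id1*, at 77.6 ± 9.65 and 91.6 ± 5.72 CPM (SD, n = 4 each), overlapped between groups, and its log2 fold change of 0.25 was 0.16 without control-labelled replicate 1.

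**Figure D5:**
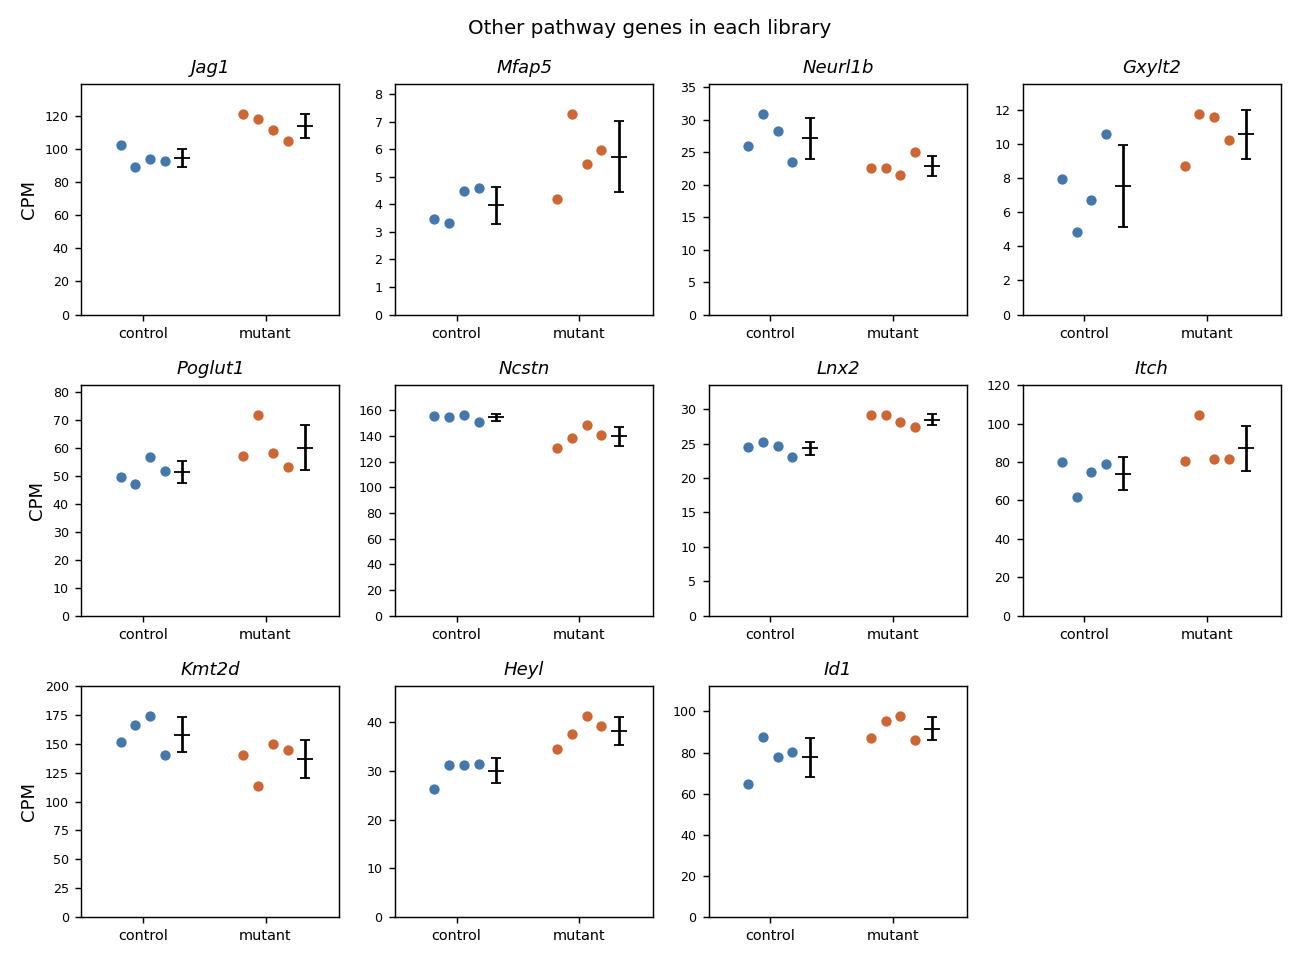
Level in CPM (vertical axis, from 0) of the 11 other pathway genes named for an unadjusted p-value under 0.05, in the control-labelled and mutant-labelled libraries. Points are libraries and bars are the mean with SD, and the groups do not overlap in *Jag1*, *Ncstn*, *Lnx2*, *Itch* and *Heyl*. The genes shown were picked by p-value, so groups that do not overlap are frequent among them by choice. Of all genes, 7.1% had groups that did not overlap, in either direction.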

How the data were processed

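RNA-seq of mouse OFT was analysed in 4 control-labelled and 4 mutant-labelled libraries of polyA RNA, prepared with a directional kit. According to the methods of the study and the submitters' processing notes, the authors trimmed adapters (cutadapt), mapped and quantified against GRCm38 (RSEM), filtered low genes by CPM and applied TMM normalization (edgeR). Every listed gene reached 1 CPM in 4 or more libraries. The strand setting of RSEM is not given in the sources used here, and *Notch1* overlaps a listed gene on the other strand (0610009E02Rik) in its exons, as *Notch3* and *Maml1* overlap antisense genes that are not listed (Gm17276 and Gm26542). The deposited values are CPM (1 column per library, 0 columns unused). Dividing each column by the CPM worth of 1 read gave whole reads for 100% of values (tolerance 1e-06 reads), and these reads served the count models. Their totals were 10669420 to 28212669 in the control-labelled and 21064242 to 30469165 in the mutant-labelled libraries, and 1 read was worth 0.0325 to 0.0948 CPM.

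Groups were compared with limma 3.58.1 (lmFit and eBayes with a trend, R 4.3.3) on log2(CPM + 0.5), which understates fold changes of low genes, with Benjamini-Hochberg adjustment over 14608 genes, two-sided, and a threshold of 0.05. Exact permutation tests used the 70 relabellings of the CPM values and are unadjusted. The labels do not say that libraries came from separate litters. Counts were also fitted with edgeR 4.0.16 and DESeq2 1.42.0. Lengths, GC content and positions came from GENCODE M21 (GRCm38), where 14600 genes were found. The trend with GC and log2 length of the longest transcript was removed per library with splines.

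The members and lists were chosen with earlier results of these data known. Beside the members and both mutated genes, the text names up to 3 genes per pathway list with the smallest unadjusted p-value under 0.05, or else the 2 most abundant, and the 2 nearest profiles of each receptor. Promoter letters were read from RefSeq windows. The alternatives were other pseudocounts (0.1 and 2), a filter at a mean of 5 CPM, quantile normalization, the trend removal, the count models, each library left out in turn, a replicate block, and, chosen after seeing the data, both libraries with the steepest GC trends left out.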

Additional observations from a re-analysis of the deposited data

Results flagged for a closer look

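Among 68 groups of 4 values examined for a library set apart from the others by Dixon's criterion, 2 met it, and chance alone gives about 1 in 20. *Itch* was at 104.6 CPM in mutant-labelled replicate 2, while the other mutant-labelled libraries lay between 80.3 and 81.8 CPM. *Heyl* was at 26.3 CPM in control-labelled replicate 1, while the other control-labelled libraries lay between 31.2 and 31.5 CPM. Neither is a member, and 0 of the 20 groups of the members met the criterion.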

How the results depend on the processing

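Over 19 alternatives for each of the 10 members, 162 of 190 kept the direction and stayed short of the threshold, 28 turned the sign of a difference near 0, and 0 passed the threshold. *Notch2*, *Mfng*, *Rfng* and *Rbpj* kept their direction in every alternative run, but not their size. *Notch2* was at 0.025 without control-labelled replicate 2 and 0.032 without mutant-labelled replicate 3, *Mfng* at 0.10 without control-labelled replicate 1 and 0.099 without control-labelled replicate 4, and *Rfng* at -0.055 without mutant-labelled replicate 2 and -0.073 without control-labelled replicate 2. With the GC and length trend removed, *Notch1* was at 0.0024 and *Maml1* at 0.055 (log2), the same with the replicate block added. *Lfng* was at -0.014 with quantile normalization, -0.0041 in the edgeR quasi-likelihood test, -0.0060 in the likelihood ratio test and -0.0085 in DESeq2. Without both libraries with the steepest GC trends, *Mfap5* was at 0.29, *Gxylt2* at 0.27, *Poglut1* at 0.093, *Itch* at 0.058, *Kmt2d* at -0.095, *Notch1* was at 0.019, *Lfng* at -0.054, *Maml1* at 0.081 and *Mib1* at -0.021. *Ncor1* was at 1.9e-05 with quantile normalization. With each library left out in turn, *Notch1* ran from -0.15 to 0.015, *Notch3* from -0.073 to 0.15, *Notch4* from -0.097 to 0.082, *Lfng* from -0.054 to 0.063, *Maml1* from -0.056 to 0.042, *Maml2* from -0.079 to 0.027 and *Ncor1* from -0.042 to 0.041. The cause of these turns was not tested.

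The number of genes past the threshold was 0 in limma, 107 in the edgeR likelihood ratio test and 194 in DESeq2, with 1763 at an unadjusted p-value under 0.05 in limma. Pathway genes at an unadjusted p-value under 0.05, 13 in all, were 7 with the replicate block and 7 to 15 with each library left out. Same-numbered libraries did not deviate together (correlations of 0.035, -0.19, 0.027 and -0.045 across genes for replicates 1 to 4). These values were taken before removal of the GC trend and cannot show whether same-numbered pools shared a litter or preparation. The replicate block gave 0 genes past the threshold. Per kilobase of the longest transcript in place of the union of exons, *Notch1* was at 13.6, *Notch4* at 5.09, *Mfng* at 3.61 and *Rbpj* at 16.7 CPM per kilobase. *Lfng* and *Mfng* had the fewest reads, 52 and 77 in control-labelled replicate 2, where counting error was 13.9% and 11.4%.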
